A study of Mus musculus with 6 samples.

Results

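The genes described here carry fatty acids from the capillary lumen into the heart muscle cell. They are 9 genes taken by symbol from a table of 23404 genes: Gpihbp1, Lpl, Vldlr, Cd36, Slc27a1, Acsl1, Fabp3, Fabp4 and Fabp5. All 9 were in the table and all 9 passed the filter on low values. RNA came from C57BL/6J mouse cells that the submitters label as cardiomyocytes, sorted on autofluorescence in the FITC channel together with forward scatter (FSC), which grows with particle size. FITChigh is the sub-population of high FITC and low FSC signal, and FITCdim that of low FITC and high FSC signal. Each had 3 libraries, which the series text calls biological replicates. Both groups share the strain and the cell type label, and no age, treatment or genotype is given.

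The heart burns mostly fatty acids, which reach it as triglyceride in lipoproteins and as free acids bound to albumin. Lipoprotein lipase is secreted by myocytes, and the capillary protein GPIHBP1 carries it to the luminal face of the endothelium, where it splits triglyceride. The released acids enter cells through CD36 and FATP proteins, bind to cytosolic fatty acid binding proteins (FABPs) and are activated to acyl-CoA. FABP3 is the heart and muscle form of the binding protein. FABP4 and FABP5 are found in capillary endothelium of the heart and also in fat cells and macrophages.

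The 3 binding protein genes are related in sequence, so their coding sequences were compared over the length of 1 read, which is 75 bases in this series. The windows below, from the GENCODE M21 transcripts on GRCm38, are the stretch of Fabp4 with the most matches to both others, and the best match of each. They span exons 1 and 2 of each gene. They lie at chr4:130308821-130312335 (plus strand) for Fabp3, chr3:10206078-10208468 (minus strand) for Fabp4 and chr3:10012689-10015015 (plus strand) for Fabp5, each with an intron between. Capitals mark the 44 of 75 bases that all 3 genes share.
Fabp3: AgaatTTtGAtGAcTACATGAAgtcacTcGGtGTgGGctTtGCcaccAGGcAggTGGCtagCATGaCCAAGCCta
Fabp4: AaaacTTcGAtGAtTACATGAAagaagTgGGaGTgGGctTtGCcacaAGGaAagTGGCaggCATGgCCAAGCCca
Fabp5: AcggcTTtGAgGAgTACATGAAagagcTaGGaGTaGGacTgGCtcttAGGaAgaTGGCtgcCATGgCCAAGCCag
Over whole coding sequences 65.6% of aligned bases were identical between Fabp4 and Fabp3, 57.3% between Fabp5 and Fabp3 and 61.1% between Fabp5 and Fabp4. The longest run of letters shared by Fabp4 and Fabp3 was 14 bases, and by Fabp5 and Fabp4 12 bases. No window of 75 bases matched at more than 58 positions in any of these pairs. Fabp3 has an annotated processed copy, Fabp3-ps1, which was not compared, and how the authors treated reads that map to several places is not given in the sources used here.

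Levels are adjusted read counts, the values the authors deposited. They are read counts brought to a common library size and not divided by gene length. Whole reads came back on undoing a quantile adjustment, so the values are not simple multiples of reads. Depth, as reads recovered from the values, was 1589825 to 2931045 per FITChigh library and 1705626 to 3345996 per FITCdim library. Column totals were 2333473 to 2443707 adjusted read counts for FITChigh and 2030583 to 2112872 for FITCdim, so levels in FITChigh stand somewhat higher in this unit than with a common total. Groups were compared with limma-trend on log2(value + 1) over 12907 genes, and calls were made at a Benjamini-Hochberg adjusted p under 0.05. For low genes this scale understates the fold change. In bulk RNA, fewer cells of a type and less RNA per cell cannot be told apart. Of all genes tested, 16.1% were called, 2.51% higher and 13.5% lower in FITChigh. Of the 9 lipid uptake genes 2 were called higher (Fabp3 and Slc27a1), 3 were called lower (Gpihbp1, Fabp4 and Fabp5) and 4 did not pass (Lpl, Vldlr, Cd36 and Acsl1). The groups did not overlap for 6 of the 9, with 3 higher (Lpl, Fabp3 and Slc27a1) and 3 lower in FITChigh, against 31.6% of all genes tested, 11.4% higher and 20.2% lower. The median log2 fold change was 0.21 over the 9 genes and -0.01 over all genes tested. The 9 genes together took 1.93% to 2.09% of the adjusted read counts of a library in FITChigh and 1.93% to 1.99% in FITCdim.

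**Figure D1:**
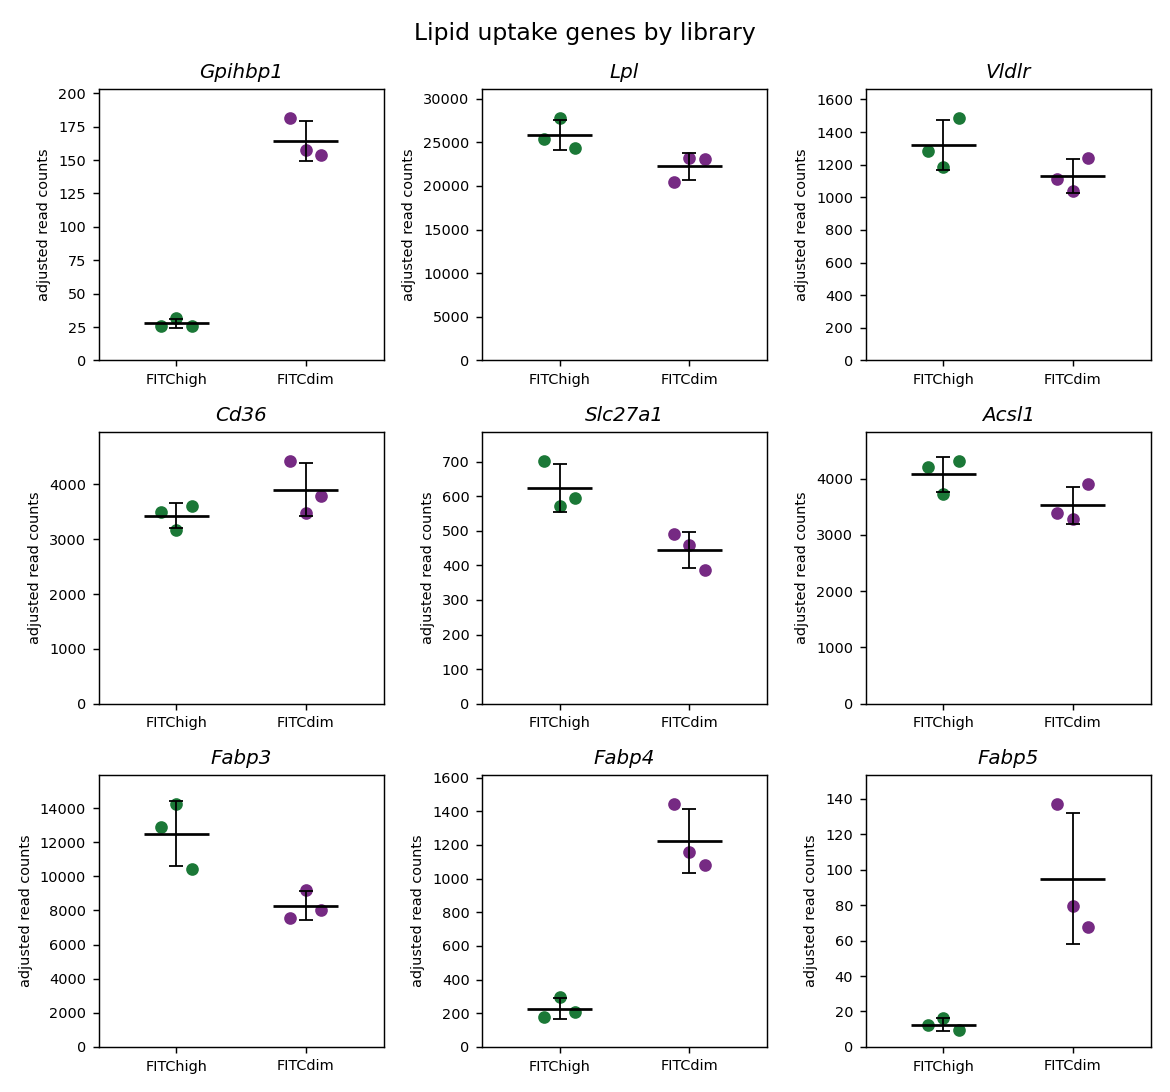
Adjusted read counts (vertical axes, from 0) of the 9 lipid uptake genes in the 3 FITChigh and 3 FITCdim libraries. Points are libraries, long bars are means and whiskers are 1 SD (n = 3 each). Gpihbp1, Fabp4 and Fabp5 stand far lower in every FITChigh library, with for example 25.7 to 31.7 against 154 to 182 for Gpihbp1, while Fabp3 and Slc27a1 stand higher without overlap.

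Gpihbp1, the capillary anchor of lipoprotein lipase (chromosome 15, 75596628 to 75599481 on the plus strand in mm10), had 25.7, 31.7 and 26.2 adjusted read counts in the FITChigh libraries, against 182, 157 and 154 in the FITCdim libraries. The groups were far apart and each varied little. Its level fell in FITChigh, with a log2 change of -2.52 (SE 0.19, adjusted p = 1.9e-07), which is 5.74-fold lower (95% interval 4.36 to 7.55). The values rest on 81 reads over the FITChigh libraries and 560 over the FITCdim libraries. The call held under all 15 alternatives to the processing, with an adjusted p of at most 7.8e-05.

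Lpl, the lipase that GPIHBP1 binds (chromosome 8, 68880491 to 68907448, plus strand), was far more abundant and did not pass the test. It had 25324, 27778 and 24392 adjusted read counts for FITChigh, against 20481, 23207 and 23093 for FITCdim. Its values did not overlap between the groups, yet the log2 change of 0.21 (SE 0.20, adjusted p = 0.53) did not pass, and its 95% interval ran from -0.21 to 0.64. After quantile normalization the value was -0.16, so its direction depends on the scaling. Lpl made up 1.04% to 1.14% of all adjusted read counts for FITChigh and 1.01% to 1.10% for FITCdim. Within a library, log2(value + 1) of Gpihbp1 minus that of Lpl, was -9.89, -9.73 and -9.81 in FITChigh and -6.81, -7.20 and -7.22 in FITCdim. The capillary anchor stood 2.74 lower relative to the lipase in FITChigh on the log2 scale, without overlap between the groups.

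Vldlr, a receptor for triglyceride-rich lipoproteins (chromosome 19, 27216484 to 27254231, plus strand), had 1285, 1188 and 1487 adjusted read counts for FITChigh, against 1111, 1036 and 1243 for FITCdim. The groups overlapped. The log2 fold change was 0.22 (SE 0.13, adjusted p = 0.31; 95% interval -0.06 to 0.51), and it was -0.05 after quantile normalization.

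Cd36, the fatty acid translocase of endothelium and muscle (chromosome 5, 17781690 to 17888801, minus strand), had 3503, 3173 and 3615 adjusted read counts for FITChigh, against 4425, 3476 and 3797 for FITCdim. The groups overlapped, with FITCdim replicate 1 the highest library. Its log2 fold change was -0.18 (SE 0.15, adjusted p = 0.47), and the 95% interval, -0.49 to 0.13, holds neither a fall of the size seen for Gpihbp1 nor a rise of the size seen for Fabp3. Of the 15 alternatives 1 called it, quantile normalization, at -0.55 (adjusted p = 0.021), and over all of them the adjusted p ran from 0.021 to 0.80.

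Slc27a1, which encodes the fatty acid transport protein FATP1 (chromosome 8, 71568882 to 71587302, plus strand), had 702, 573 and 595 adjusted read counts for FITChigh, against 490, 458 and 388 for FITCdim. Every FITChigh library stood above every FITCdim library. It rose, with a log2 change of 0.48 (SE 0.14, adjusted p = 0.024), which is 1.40-fold (95% interval 1.14 to 1.72). The call was lost with a common total (0.28, adjusted p = 0.22), after quantile normalization (0.36, adjusted p = 0.10) and without FITChigh replicate 1 (adjusted p = 0.14), FITCdim replicate 2 (0.056) or FITCdim replicate 3 (0.096). Over the 15 alternatives the adjusted p ran from 0.0012 to 0.22.

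Acsl1, the main acyl-CoA synthetase of the heart, which traps fatty acids as acyl-CoA (chromosome 8, 46471037 to 46536051, plus strand, overlapped on the other strand by Gm45244), had 4200, 3719 and 4311 adjusted read counts for FITChigh, against 3388, 3289 and 3900 for FITCdim. The groups overlapped. The log2 fold change was 0.21 (SE 0.14, adjusted p = 0.38; 95% interval -0.09 to 0.51) and -0.06 after quantile normalization.

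**Figure D2:**
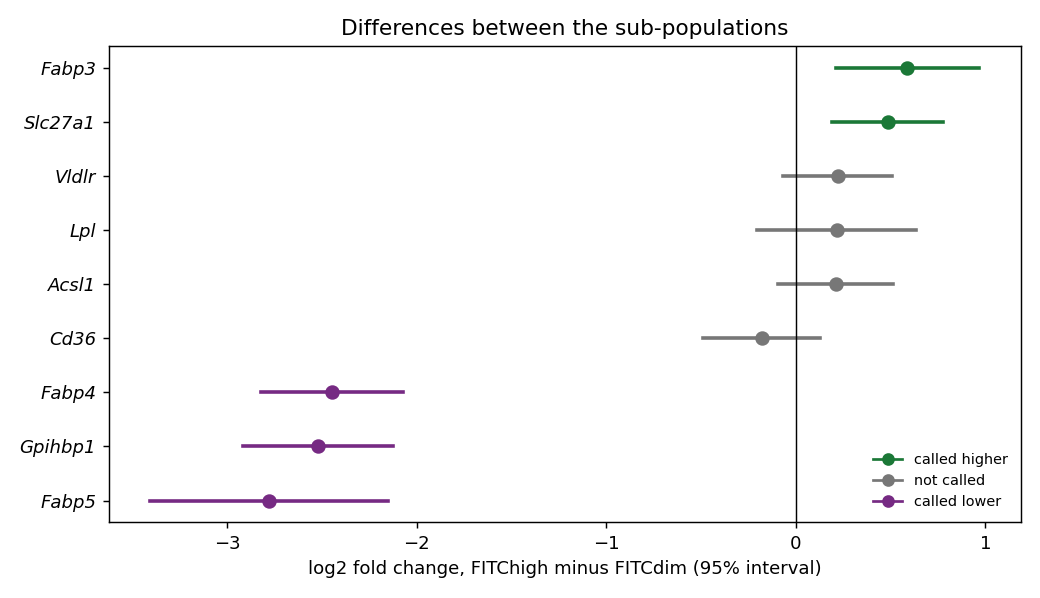
Log2 fold changes, FITChigh minus FITCdim (horizontal axis), of the 9 lipid uptake genes with their 95% intervals from limma-trend. The genes fall into a group near 0 or above, from -0.18 for Cd36 to 0.59 for Fabp3, and a group of 3 between -2.78 and -2.45 (Fabp5, Gpihbp1 and Fabp4).

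Among the binding proteins, the heart form stood higher and the other forms lower in FITChigh. Fabp3 (chromosome 4, 130308595 to 130315463, plus strand, overlapped on the other strand by Zcchc17 and Gm10570) had 12875, 14224 and 10434 adjusted read counts for FITChigh, against 7569, 9218 and 8042 for FITCdim. The groups did not overlap. Its log2 fold change was 0.59 (SE 0.18, adjusted p = 0.033), with a 95% interval of 1.16 to 1.95 for the fold. The call was among the weaker ones. It was lost with a common total (0.39, adjusted p = 0.13), after quantile normalization (0.16, adjusted p = 0.47) and without a filter on low values (adjusted p = 0.064). It was also lost without FITChigh replicate 1 or 2 (adjusted p = 0.12 each) and without FITCdim replicate 1 (0.14), 2 (0.060) or 3 (0.085). Over the 15 alternatives the adjusted p ran from 4.7e-04 to 0.47.

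Fabp4 (chromosome 3, 10204088 to 10208576, minus strand) had 176, 296 and 209 adjusted read counts for FITChigh, against 1442, 1156 and 1078 for FITCdim. The highest FITChigh library stood well below the lowest FITCdim library. Its level fell, with a log2 change of -2.45 (SE 0.18, adjusted p = 1.4e-07), which is 5.46-fold lower (95% interval 4.21 to 7.07). It was called under all 15 alternatives, with an adjusted p of at most 6.8e-05.

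Fabp5 (chromosome 3, 10012548 to 10016607, plus strand) was the rarest of the 3, with 12.4, 16.2 and 9.29 adjusted read counts for FITChigh, against 137, 79.8 and 67.9 for FITCdim. Behind these values lay 13, 11 and 12 reads in FITChigh and 221, 64 and 59 reads in FITCdim. FITCdim replicate 1 was the highest library, and the groups did not overlap. Fabp5 fell by 2.78 on the log2 scale (SE 0.30, adjusted p = 6.1e-06), which is 6.87-fold lower (95% interval 4.45 to 10.6). It too was called under all 15 alternatives, with an adjusted p of at most 6.4e-04.

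To set Fabp4 and Fabp5 against Fabp3 directly, log2(value + 1) of Fabp3 was subtracted within each library. For Fabp4 the difference was -6.18, -5.58 and -5.63 in FITChigh, against -2.39, -2.99 and -2.90 in FITCdim. For Fabp5 it was -9.91, -9.69 and -9.99 in FITChigh, against -5.78, -6.83 and -6.87 in FITCdim. Neither difference overlapped between the groups. Relative to Fabp3, Fabp4 was thus 3.04 lower in FITChigh on the log2 scale, which is 8.21-fold, and Fabp5 3.37 lower, which is 10.3-fold. The exact two-sided permutation test gave p = 0.1 for each (0.1 after adjustment over both), the smallest value that this test allows for 3 against 3 libraries, so it cannot reach the threshold here. With each library rescaled to a common total the differences were -3.04 and -3.36, and after quantile normalization -2.75 and -2.70, so that the fold for Fabp5 depends on the scaling. With any 1 library left out the difference lay between -3.15 and -2.85 for Fabp4 and between -3.56 and -3.01 for Fabp5.

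In the reads as adjusted, Fabp4 came to 1.37% to 2.08% of the level of Fabp3 in FITChigh and to 12.5% to 19.0% of it in FITCdim. Fabp5 came to 0.0891% to 0.114% in FITChigh and 0.845% to 1.81% in FITCdim. These are shares of adjusted read counts between genes of similar exon length, 0.823 kb for Fabp3, 0.896 kb for Fabp4 and 0.987 kb for Fabp5 in the annotation. Fabp5 minus Fabp4 overlapped between the groups, at -4.06 ± 0.32 in FITChigh and -3.73 ± 0.31 in FITCdim (n = 3 each, SD; two-sided exact permutation p = 0.3).

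**Figure D3:**
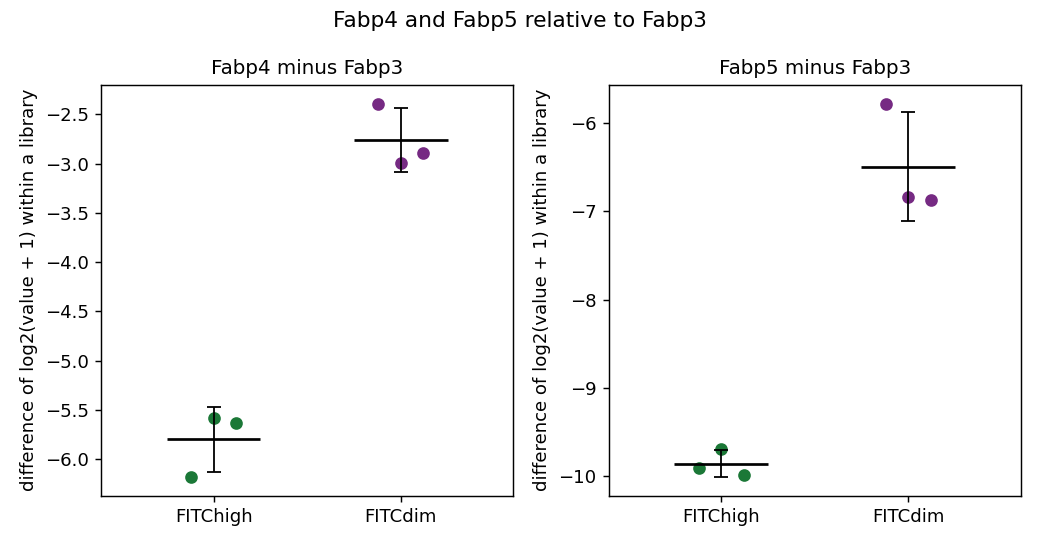
Difference of log2(value + 1) within a library (vertical axes), Fabp4 minus Fabp3 on the left and Fabp5 minus Fabp3 on the right, in 3 FITChigh and 3 FITCdim libraries. Points are libraries, bars are means and whiskers 1 SD. Both differences are lower in every FITChigh library, with means of -5.80 and -9.86 against -2.76 and -6.49 in FITCdim.

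Fabp4 and Fabp5 lie in 1 cluster of binding protein genes on chromosome 3 with Pmp2 (10179851 to 10183929), Fabp9 (10193621 to 10197283) and Fabp12 (10244209 to 10301183). The other 3 were close to empty. Pmp2 and Fabp9 had 0 reads over the FITChigh libraries and 1 read each over the FITCdim libraries, and Fabp12 had 2 reads over FITChigh and 1 over FITCdim.

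Levels of different genes were compared per kb of exon, with the exons of all protein-coding transcripts of a gene pooled. In FITChigh the order of adjusted read counts per kb was Fabp3 at 15202 ± 2334, Lpl at 6277 ± 425, Cd36 at 956 ± 63.9, Acsl1 at 938 ± 72.3, Fabp4 at 254 ± 69.2, Slc27a1 at 203 ± 22.4, Vldlr at 159 ± 18.4, Gpihbp1 at 13.3 ± 1.58 and Fabp5 at 12.8 ± 3.49 (SD, n = 3). Cd36 and Acsl1, Fabp4 and Slc27a1, and Gpihbp1 and Fabp5 each lay within 1 SD of each other. In FITCdim the order was Fabp3 at 10056 ± 1032, Lpl at 5410 ± 375, Fabp4 at 1368 ± 214, Cd36 at 1086 ± 134, Acsl1 at 811 ± 75.4, Slc27a1 at 145 ± 17.0, Vldlr at 136 ± 12.6, Fabp5 at 96.2 ± 37.4 and Gpihbp1 at 78.4 ± 7.14 (SD, n = 3). On these pooled lengths Fabp4 stood above Cd36 in FITCdim and below Cd36 and Acsl1 in FITChigh. The order with lengths of single transcripts was not computed and may differ. Slc27a1 and Vldlr, and Fabp5 and Gpihbp1, did not differ beyond their spread in FITCdim.

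The falls of Gpihbp1, Fabp4 and Fabp5 went with lower markers of endothelium, but not of endothelium alone. The median log2 fold change was -2.70 for fibroblast, -2.46 for pericyte and smooth muscle, -2.40 for macrophage and -3.21 for atrial markers. Over all genes tested 13.5% were called lower. All 20 endothelial markers tested were called lower in FITChigh (median log2 fold change -2.61), none was at 0, and their summed level was 775 to 1032 adjusted read counts for FITChigh and 5522 to 5953 for FITCdim. Cdh5, the endothelial cadherin and the most abundant of them, stood at 160 ± 22.6 in FITChigh and 976 ± 171 in FITCdim (n = 3 each, SD). All 5 markers of capillaries were called lower too, with a sum of 70.6 to 96.6 in FITChigh and 478 to 512 in FITCdim, led by Cd300lg at 36.8 ± 8.02 and 268 ± 14.9 (n = 3 each, SD). So were the 5 tested markers of larger vessels and endocardium, of which Vwf was the most abundant. The part of endothelial RNA in the falls was not tested.

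Measured against the summed endothelial markers of the same library, the 3 genes differed between the groups by 0.11 (Gpihbp1), 0.18 (Fabp4) and -0.15 (Fabp5) on the log2 scale. Log2(value + 1) minus the log2 of that sum was -5.01 ± 0.21 for Gpihbp1 in FITChigh and -5.12 ± 0.09 in FITCdim, and -2.06 ± 0.28 for Fabp4 in FITChigh and -2.23 ± 0.18 in FITCdim. For Fabp5 it was -6.12 ± 0.46 in FITChigh and -5.96 ± 0.48 in FITCdim (n = 3 each, SD). All 3 overlapped between the groups (two-sided exact permutation p = 0.5, 0.5 and 0.7, smallest possible 0.1). The other 6 genes stood higher against the endothelial sum in FITChigh, without overlap, by 2.45 for Cd36 to 3.22 for Fabp3. That sum was itself lower in FITChigh (log2 ratio of means -2.62), so a gene that does not change lies higher against it by about as much. How many of all genes tested stand apart in this ratio was not computed. Higher values of this size can therefore not be called particular to these 6 genes. No ratio was taken to the sums of fibroblast, pericyte and smooth muscle, macrophage or atrial markers. The overlap of the 3 genes can therefore not be called particular to endothelium.

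The same was done with the summed level of 30 cardiomyocyte markers. That sum was 545016 to 597801 adjusted read counts for FITChigh and 367041 to 427086 for FITCdim, and 5 of the 30 markers were called higher and 0 lower, where 2.51% of all genes tested were called higher. Each of the 5 (Tnni3, Nexn, Ckmt2, Cox6a2 and Cox7a1) lost its call under some of the 15 alternatives, being called in 7 (Tnni3) to 13 (Ckmt2) of them. Myh6, the most abundant, did not pass (log2 fold change 0.75, adjusted p = 0.14). Relative to this sum Fabp3 was at -5.54 ± 0.16 in FITChigh and -5.62 ± 0.11 in FITCdim, and Slc27a1 at -9.86 ± 0.15 in FITChigh and -9.83 ± 0.28 in FITCdim (n = 3 each, SD). Both overlapped between the groups, with mean differences of 0.07 and -0.03. Lpl lay 0.30 lower in FITChigh and Cd36 0.69 lower, each without overlap, while Vldlr lay 0.29 and Acsl1 0.30 lower with overlap. The cardiomyocyte sum itself was higher in FITChigh (log2 ratio of means 0.51), so an unchanged gene lies lower against it by about as much. The share of all genes tested without overlap in this ratio was not computed. Lower values of this size can therefore not be called particular to these genes. Gpihbp1, Fabp4 and Fabp5 lay 3.04, 2.96 and 3.30 lower. The exact two-sided permutation test gave p = 0.1 for Lpl, Cd36, Gpihbp1, Fabp4 and Fabp5. It gave 0.2 for Vldlr and Acsl1 and 0.5 or more for Fabp3 and Slc27a1. As 0.1 is the smallest p it allows here, it cannot reach the threshold, and these ratios are descriptions.

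**Figure D4:**
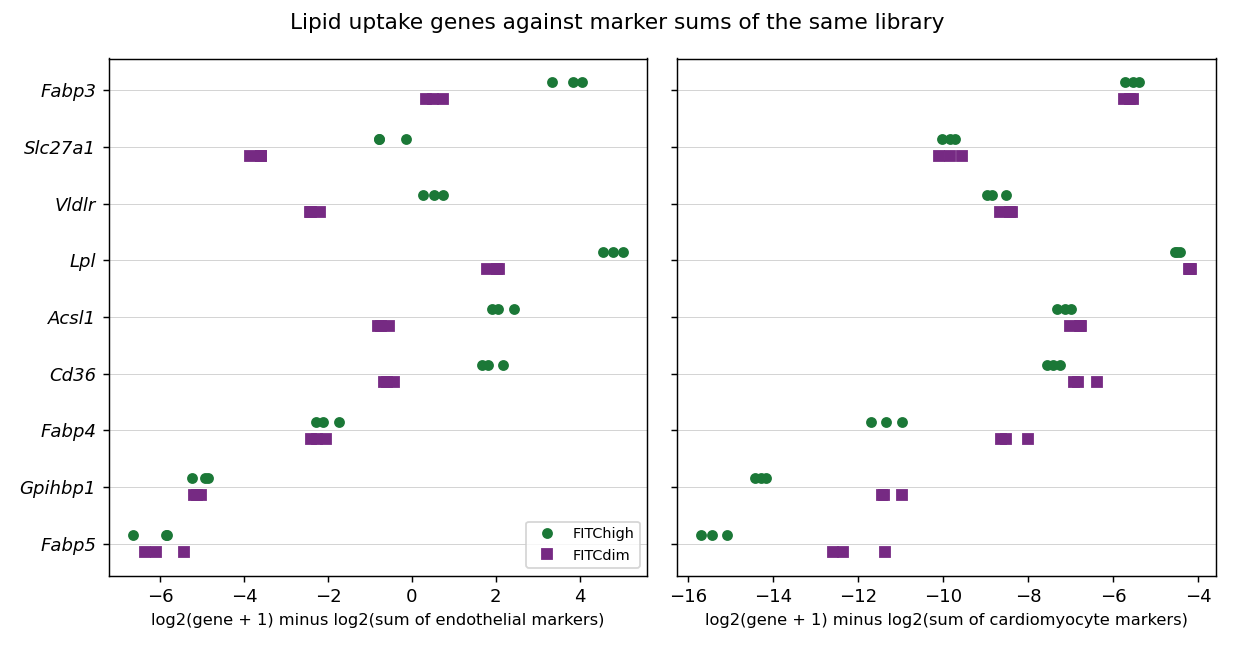
Log2(value + 1) of each lipid uptake gene minus the log2 of the summed endothelial markers (left) or cardiomyocyte markers (right) of the same library (horizontal axes). Each row is a gene, with the 3 FITChigh libraries as circles above the 3 FITCdim libraries as squares. Gpihbp1, Fabp4 and Fabp5 overlap on the left, and Fabp3 and Slc27a1 overlap on the right with differences of 0.07 and -0.03.

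Fabp4, Fabp5, Lpl and Cd36 are also known from macrophages and fat cells. Of 12 macrophage markers tested, 11 were called lower in FITChigh, with a summed level of 103 to 141 adjusted read counts for FITChigh and 506 to 1155 for FITCdim, none at 0. Lyz2 was the most abundant, at 34.7 ± 9.90 in FITChigh and 208 ± 111 in FITCdim (n = 3 each, SD). Within FITCdim the macrophage sum was 1155, 589 and 506 in replicates 1, 2 and 3. Replicate 1 was also the highest FITCdim library for Fabp4, Fabp5 and the endothelial sum. The part of macrophages in the falls was not tested. Of 11 fat cell markers, 8 had a value of 0 in all 6 libraries, among them Adipoq, Lep, Cidec and Retn. The most abundant, Cidea, which heart muscle also expresses, was called higher in FITChigh (160 ± 24.2 in FITChigh and 109 ± 12.2 in FITCdim; n = 3 each, SD). Fibroblast markers (7 of 7 tested lower, led by Dcn), markers of pericytes and smooth muscle (9 of 10 lower, Acta2 not passing) and atrial markers (6 of 6 tested lower, led by Nppa) were lower in FITChigh as well, and their part in the results was not tested.

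Over the 6 libraries, the genes whose log2 values ran most like Gpihbp1 were Egfl7 (Pearson r = 0.999) and C1qtnf9 (0.997). For Fabp4 they were Mmrn2 and Pea15a, and for Fabp5 Cd9 and Ly6c1. For Fabp3 they were Gpi1, a glycolytic enzyme, and Ndufs6, a subunit of complex I. For Slc27a1 they were Gbp6 and Aldh9a1, for Lpl Cdc37 and Ssbp1, for Vldlr Fig4 and Clip4, for Acsl1 Lmo7 and Pde4dip, and for Cd36 Sppl2a and Prickle1. Egfl7, Mmrn2 and Ly6c1 are endothelial and stand on the marker list. With 6 points in 2 groups such values mostly follow the difference between the groups. An r over 0.95 was reached by 259 of 5694 genes with Gpihbp1, by 227 with Fabp4, by 141 with Fabp3 and by 11 with Cd36.

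Other genes of the same path were read from 5 lists. Their counts are to be read beside the shares over all genes tested, 13.5% called lower and 2.51% higher. Of 13 tested genes of lipoprotein breakdown and lipoprotein receptors, 4 were called lower and 0 higher, with 9 not passing (median of the log2 fold changes -0.53). Lrp1, a large endocytic receptor, fell to 24.8 ± 2.82 adjusted read counts for FITChigh, against 96.8 ± 27.0 for FITCdim (-1.89, adjusted p = 3.0e-05). Scarb1, the receptor for high-density lipoprotein, fell by 1.56 and Apoe, the apolipoprotein that binds receptors, by 1.46. Hspg2, the basement membrane proteoglycan perlecan and the most abundant of the list, fell by 0.76 (adjusted p = 0.002). Angptl4, an inhibitor of lipoprotein lipase named here after its values were seen, stood at 25.8 ± 1.11 in FITChigh and 25.0 ± 6.23 in FITCdim (log2 fold change 0.08, SE 0.28, adjusted p = 0.89). Lmf1, which lipoprotein lipase needs for folding and which was named on the same ground, stood at 96.9 ± 18.0 in FITChigh and 79.3 ± 18.5 in FITCdim (0.29, adjusted p = 0.40).

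Of 9 tested genes among the other transporters, binding proteins and acyl-CoA synthetases, 2 were called lower and 7 did not pass (median 0.12). Over all genes tested 13.5% were called lower. Cav1, the caveolar coat protein that endothelium holds in large amounts, had a log2 fold change of -2.79 (adjusted p = 3.7e-08), and Acsl5, another acyl-CoA synthetase, one of -2.17 (adjusted p = 1.8e-04). The most abundant, Got2, which is also described as a plasma membrane fatty acid binding protein, did not pass (0.24, adjusted p = 0.24). Of this list 11 further genes in the table stayed under the filter, 7 of them at 0 in every library, among them the liver and gut forms Fabp1 and Fabp2. Of 10 regulators of endothelial fatty acid uptake 7 were called lower, 0 higher and 3 did not pass (median -1.95). The 20 endothelial markers had a median of -2.61. Whether these regulators changed apart from endothelial RNA was not tested. Meox2, a transcription factor that with Tcf15 drives fatty acid uptake genes of heart endothelium, fell to 9.53 ± 5.21 in FITChigh, against 75.3 ± 3.36 in FITCdim (-2.97, adjusted p = 7.5e-06). Aplnr, the apelin receptor, fell by 2.82 and Notch1 by 2.76. Vegfb, the most abundant of the list and a growth factor made by myocytes, did not pass (0.31, adjusted p = 0.19).

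Further genes store, release and oxidise the fatty acids within the cell. Of 22 tested genes of triglyceride storage and lipolysis, 2 were called higher, 2 lower and 18 did not pass (median 0.14). Over all genes tested 2.51% were called higher and 13.5% lower. Pnpla2, the first lipase of the lipid droplet, stood at 1431 ± 122 adjusted read counts for FITChigh and 1078 ± 102 for FITCdim (0.41, adjusted p = 0.044), and Plin4, a droplet coat protein, rose by 0.54 (adjusted p = 0.047). Mgll, the lipase of the last step, fell by 1.29 (adjusted p = 7.4e-06) and Lipe, the hormone-sensitive lipase, by 0.58 (adjusted p = 0.015). The call of Lipe was lost without FITCdim replicate 1 (adjusted p = 0.066). Of 10 genes of the carnitine shuttle, which carries acyl groups into mitochondria, Cpt2 was called higher (0.42, adjusted p = 0.041), 0 were lower and 9 did not pass (median 0.30). The most abundant, Crat, stood at 0.37 (adjusted p = 0.092). The calls of Pnpla2, Plin4 and Cpt2 were all lost with a common total, with an adjusted p of 0.35, 0.24 and 0.34. They were also lost after quantile normalization (0.47, 0.16 and 0.19) and without FITChigh replicate 1 (0.20, 0.27 and 0.18), FITChigh replicate 3 (0.082, 0.061 and 0.066), FITCdim replicate 1 (0.14, 0.073 and 0.079) or FITCdim replicate 3 (0.13, 0.099 and 0.14). In all, Pnpla2 was called in 8 of the 15 alternatives and Plin4 and Cpt2 in 7 each.

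**Figure D5:**
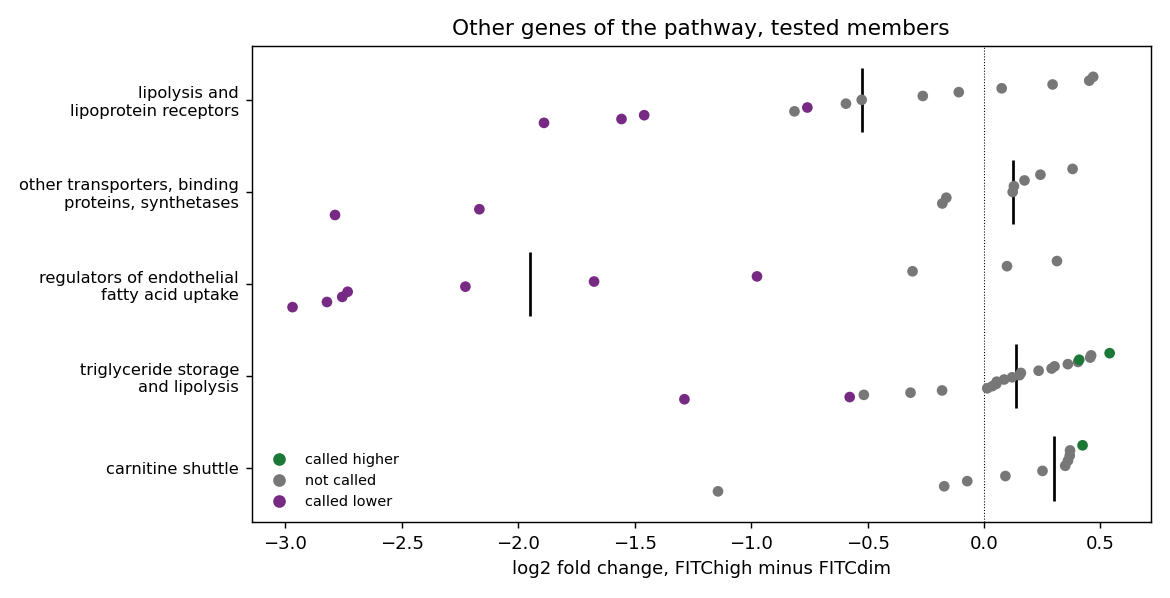
Log2 fold changes, FITChigh minus FITCdim (horizontal axis), of the tested genes of 5 lists from the same path, 1 point a gene, with the median of each list as a vertical bar. The lowest median, -1.95, is that of the regulators of endothelial fatty acid uptake, and the highest, 0.30, that of the carnitine shuttle. The endothelial markers, not shown, had a median of -2.61.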

How the data were processed

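Polyadenylated RNA of 6 sorted samples was sequenced as paired reads of 75 bases from stranded libraries, per the labels' protocols. The authors name STAR 2.5, edgeR and mm10, per the submitters' processing notes, while the sources used here give no counting program, annotation or strand setting. For each gene and library the authors deposited a signal: reads adjusted to 1 library size. Of 23410 gene lines, 6 are garbled and were left out.

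Testing used the 12907 genes that reached 1 in 3 or more libraries, on log2(value + 1), by limma-trend (limma 3.58.1, R 4.3.3; no block, two-sided), FITChigh minus FITCdim, with Benjamini-Hochberg adjustment at 0.05. The fit was tested on simulated data with independent libraries and a common dispersion. The real libraries may depart from both, so that test does not speak for the calls made here. Whole reads were recovered by undoing a quantile adjustment between negative binomial distributions (dispersion 0.0203), and 99.99% to 100% of the values of a library came out whole to within 0.1 read. They give the depth, the read numbers stated for single genes, the chi-square values below and 1 alternative. Replicate numbers follow accession order. Libraries of 1 group differed by more than sampling noise (chi-square over degrees of freedom, 3.87 to 6.60). Positions and lengths (exons of protein-coding transcripts, pooled per gene) are from GENCODE M21 on GRCm38, the same build as mm10. The labels do not say what the title tags shared across groups stand for, and they were not taken as pairs. Deviations from the group mean correlated at 0.07, 0.13 and 0.17 between same-tag libraries and at -0.12 to -0.01 between those of different tags. Such deviations cancel within a group, so positive same-tag values push the others down. The negative values are therefore no separate evidence. A shared origin of same-tag libraries is possible, and the tag was used as a block in 1 alternative.

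The 9 genes, the lists and the alternatives were chosen with earlier results of these data known. Named genes are the 9, in each list the one with the highest mean and up to 3 called with the largest change, and for each of the 9 the 2 of most similar pattern (Pearson r, mean of at least 50). Alternatives changed the pseudocount, filter, scaling, variance model and block, or left out 1 library. Count models on recovered reads were planned but not run, because those reads are an inversion rather than deposited counts. limma-voom on them, chosen after seeing the data, took its place.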

Additional observations from a re-analysis of the deposited data

How the results depend on the processing

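Gpihbp1, Fabp4 and Fabp5 were called lower under all 15 alternatives, and Fabp4 and Fabp5 relative to Fabp3 kept their direction under every alternative run, from -3.15 to -2.75 and from -3.56 to -2.70. The 2 higher calls were less stable, and the cause was not tested. Of the lipid uptake genes 1 was called higher with no filter on low values (Fabp3 0.59, adjusted p = 0.064), and 0 with a common total (Fabp3 0.39, Slc27a1 0.28) or after quantile normalization (Fabp3 0.16, Slc27a1 0.36). Quantile normalization called Cd36 lower (-0.55) and turned Lpl (-0.16), Vldlr (-0.052) and Acsl1 (-0.063). Over all genes the median log2 change, -0.01 as deposited, was -0.20 with a common total and 0.13 after quantile normalization. Of the genes on the 5 pathway lists 3 were called higher, against 0 with a common total and 0 after quantile normalization. Of all genes 324 were called higher, and 1748 lower, against 41 and 2189 with a common total and 467 and 1213 after quantile normalization. With the title tag as a replicate block, 1064 of all genes and 12 of the pathway genes were called higher, the 9 lipid uptake genes kept their calls, and Fabp3 and Slc27a1 had an adjusted p of 4.7e-04 and 0.0012. Each library's deviations correlated best with those of its own tag, which is a hint from the data, not the design. Without 1 library the counts of higher genes ran from 0 to 2 (lipid uptake), 0 to 4 (pathway lists) and 67 to 337 (all genes), that of lower genes from 1156 to 1667, the log2 fold change of Fabp3 from 0.49 to 0.71 and that of Slc27a1 from 0.39 to 0.56. Fewer libraries also leave less power. Depth limits Fabp5 most, with 36 reads over FITChigh.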

Other observations

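Cpt1b, the muscle form of the enzyme that starts the carnitine shuttle and is known to be abundant in heart, had under 10 adjusted read counts in every library of both groups, and was named after its values were seen. It had 3.76, 7.56 and 8.95 adjusted read counts in FITChigh, against 2.60, 4.96 and 7.80 in FITCdim, from 20 reads over FITChigh and 16 over FITCdim. Its partner in the inner membrane, Cpt2, stood at 718 ± 49.3 in FITChigh and 537 ± 64.2 in FITCdim, and the liver form Cpt1a at 129 ± 10.9 and 136 ± 17.9 (SD, n = 3 each). In the annotation a read-through gene, whose older symbol BC090627 is in the table at 0 in all 6 libraries, covers Cpt1b and most of its neighbour Chkb on the same strand. Chkb had 2 reads over FITChigh and 5 over FITCdim. How reads in overlapping genes were counted is not given in the sources used here, so the level of Cpt1b is uncertain.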
